A study of Caenorhabditis elegans with 2 samples.

Results

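The 5 genes described here encode the CDC-48 segregase and its core cofactor in Caenorhabditis elegans: cdc-48.1, cdc-48.2, ufd-1, npl-4.1 and npl-4.2. They were chosen by a measured value, the high score of the NHR-77 ChIP-seq peak at cdc-48.1, so the scores and ranks there stand below as a description with no test. They are 5 of the 19973 protein-coding genes on the nuclear chromosomes, and 4 of the 5 lie on chromosome II. A listed region was assigned to a gene when its summit, the position of highest signal, lay inside the annotated gene or within 2000 bp of its 5′ end on either side.

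Chromatin immunoprecipitation sequencing (ChIP-seq) was done on whole L2 larvae of strain OP353, genotype unc-119(tm4063) III; wgIs353, males and females pooled, in which the nuclear hormone receptor NHR-77 is carried as an eGFP fusion from a transgene. There was 1 group of 2 biological replicates, and both shared this genotype, stage and antibody, which the labels list under the name of the target. The files used were lists of regions on build ce11: 30000 from both replicates pooled, 23256 from replicate 1, 30000 from replicate 2, and the authors' thresholded list of 415 peaks, which are the 415 highest pooled regions. No untagged or control sample and no read was analysed here, depth is unknown, and whole larvae do not show in which cells a region was bound.

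CDC-48, known as p97 or VCP in mammals, is a ring-shaped ATPase that pulls ubiquitylated proteins out of membranes, chromatin and complexes and hands them on, often to the proteasome. UFD-1 and NPL-4 form the adaptor that binds the ubiquitin chain for it, best known from the removal of misfolded proteins from the endoplasmic reticulum. C. elegans has a pair of genes for CDC-48 that can largely stand in for each other, and another pair for NPL-4.

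Every value called a score is the seventh column of the deposited lists, the authors' peak caller's own value, whose scale is not stated. Scores of different lists were not compared, and rank 1 is the highest score in a list. The pooled scores ran upward from 5.72 with a median of 7.98, and the thresholded peaks had scores of 27.07 to 244.8. A gene with no listed region may still hold signal too low for the list.

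One of the most highly ranked regions of the whole data set lay just upstream of cdc-48.1, and nothing comparable was listed at the other 4 genes. By the rule, 3 of the 5 genes had a pooled region, where 76.2% of all protein-coding genes had one. A thresholded peak was assigned to 1 of the 5, cdc-48.1, against 3.04% of all genes. The 415 highest nuclear regions of each replicate likewise held 1 of the 5, against 2.93% of all genes in replicate 1 and 2.95% in replicate 2. Because the peak at cdc-48.1 picked the genes, nothing is read from these counts. Of the values around the threshold, the members stood far from it on both sides: cdc-48.1 had a pooled score of 183.6 and the next member, ufd-1, had 12.05. The lowest thresholded score was 27.07 and the highest below it 27.02.

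The pooled region at cdc-48.1 is shown in full because it carries the peak, and the 250 bp before the start of cdc-48.2 are set beside it because that copy had no region there. Both read 5′ to 3′ on the strand of their gene, from the WBcel235 genome (ce11). The first spans chrII:10563468-10563674 on the minus strand and the second chrII:8138246-8138495 on the plus strand. Capitals mark matches to the 7 short words searched, described below with their background.
cdc-48.1 pooled region: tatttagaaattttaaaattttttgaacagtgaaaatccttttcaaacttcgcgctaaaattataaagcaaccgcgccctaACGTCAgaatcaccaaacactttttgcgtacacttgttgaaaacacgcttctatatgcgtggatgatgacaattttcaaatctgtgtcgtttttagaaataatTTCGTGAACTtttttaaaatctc
cdc-48.2 upstream of the start: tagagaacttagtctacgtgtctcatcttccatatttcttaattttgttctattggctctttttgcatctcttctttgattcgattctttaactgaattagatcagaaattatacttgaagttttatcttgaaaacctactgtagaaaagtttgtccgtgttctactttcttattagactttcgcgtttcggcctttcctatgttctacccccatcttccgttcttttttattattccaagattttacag

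The cdc-48.1 gene (WBGene00007352) spans chrII:10560036-10563407 on the minus strand, with 1 annotated transcript and 5 coding exons. Its pooled region was 207 bp wide, lay in intergenic sequence and ended 61 bp before the annotated gene start. The summit, at position 10563566, was 159 bp upstream of that start. The score of 183.6 ranked 6 of 30000 and was 23.02 times the list median, 75.0% of the highest score in the list and 678% of the lowest thresholded score. The neighbouring scores in the order were 186.4 above and 181.6 below, so the place at rank 6 is separated from both by a small step.

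Each replicate listed the same site. In replicate 1 the region spanned positions 10563441 to 10563710, with a score of 47.92 and rank 17. Ranks in replicate 1 include 23 mitochondrial regions, and the nuclear rank there was 3. In replicate 2 it spanned 10563481 to 10563670, with a score of 134.4 and rank 6. The summits of both replicates fell on the same base, 10563576, which is 169 bp upstream of the gene start and 10 bp from the pooled summit. On chromosome II the region ranked 1 in the pooled list, in replicate 1 and in replicate 2. Among autosomal regions it ranked 2 of 24663 in the pooled list, 1 of 18899 in replicate 1 and 2 of 24591 in replicate 2.

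**Figure D1:**
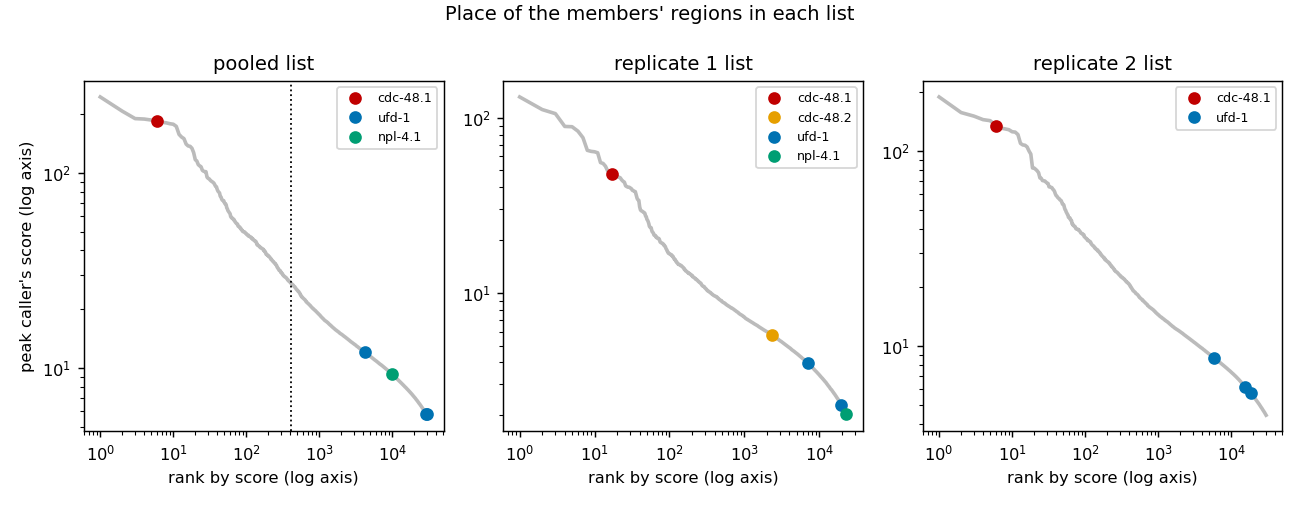
Peak caller's score against rank, both on log axes, for all regions of the pooled, replicate 1 and replicate 2 lists (grey), with every region assigned to a member as a coloured point and the dotted line at the 415 thresholded regions. The cdc-48.1 region stands at ranks 6, 17 and 6, while no other member region ranks better than 2356.

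The region was narrow. Most regions in the pooled list were 330 bp wide, and 29 were narrower. All 29 were thresholded peaks, with ranks between 1 and 62, and 24 of the 25 highest regions were among them, so the width of 207 bp is shared with other high peaks and is not peculiar to cdc-48.1. It also stood alone. The nearest other pooled summits on the chromosome were 4627 bp and 4989 bp away, at ranks 15262 and 22075, whereas the median distance from a region to its nearest neighbour on chromosome II was 1157 bp. The nearest other summits were 4740 and 7472 bp away in replicate 1, and 6800 and 5931 bp away in replicate 2. No region was listed inside the 3372 bp of the gene itself in any of the 3 lists.

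The same summit met the assignment rule for other genes. The 704 bp between cdc-48.1 and its upstream neighbour C06A1.6, which is transcribed on the same strand, held the region, with 437 bp left between its far edge and C06A1.6. The pooled summit was 1112 bp from the start of C06A1.6 and 1325 bp from the start of C06A1.7, against 159 bp for cdc-48.1. Counting each region only for the nearest start left it with cdc-48.1. Small nucleolar RNA genes, whose products guide RNA modification, lie inside cdc-48.1 without overlapping its exons: C06A1.9, whose start was 502 bp from the summit, and C06A1.8, at 2632 bp. In replicate 1 and replicate 2 the summit was 512 bp from C06A1.9. Whether these genes have a part in the signal was not tested.

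Ranked by the highest region of each gene, cdc-48.1 stood near the top of the 15227 genes with a pooled region: 4 genes, through 3 distinct regions, had a better best rank, where the median best rank was 9010. The 5 genes whose highest regions had ranks most like those of cdc-48.1 were Y41G9A.17, F55G7.5, F19H6.5, rpl-3 and F20B6.9. Likeness was the distance between log10 ranks in the replicate lists, over the 11445 genes with a region in both replicates. Y41G9A.17 ranked 20 in replicate 1 and 7 in replicate 2, F55G7.5 ranked 19 and 8, and F19H6.5 ranked 28 and 5 in that order. The ribosomal protein gene rpl-3 ranked 24 in replicate 1 and 4 in replicate 2, and F20B6.9 ranked 12 and 11. Apart from rpl-3 on chromosome III, these genes lie on X. Their summits lay farther from their gene starts than the 159 bp of cdc-48.1, at 285 bp for rpl-3 and between 1387 and 2642 bp for the X genes. None of the 7 words was found in the 200 bp around any of these 5 summits.

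**Figure D2:**
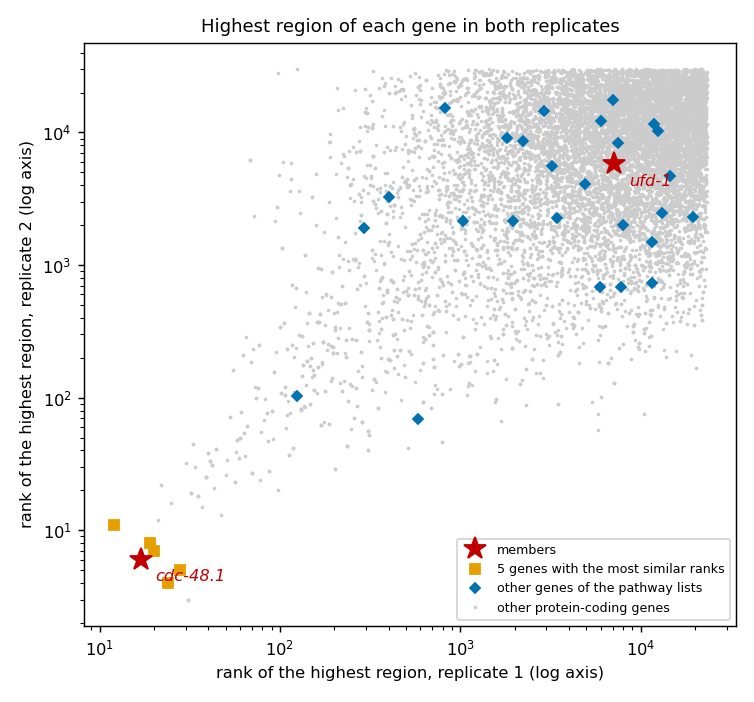
Rank of each gene's highest assigned region in replicate 1 (horizontal) and replicate 2 (vertical), log axes, for genes with a region in both. Only cdc-48.1 and ufd-1 of the members appear, cdc-48.1 at ranks 17 and 6 beside the 5 genes of most similar ranks, and ufd-1 at 7149 and 5793 within the main cloud of genes.

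In base composition the cdc-48.1 summit was unlike most thresholded peaks. The 200 bp around it held 32.5% G and C. The mean was 43.8% ± 7.24 over the thresholded peaks (SD, n = 415 regions) and 34.6% ± 7.26 over the other pooled regions (SD, n = 29585 regions). Of the thresholded peaks, 95.9% had at least the GC content of cdc-48.1 and 17 had less. Its count of CG dinucleotides was nevertheless 10, against a median of 11 in thresholded peaks and 6 in the other pooled regions. Relative to its C and G content this was 1.95 times the count of CG that composition alone gives, a ratio reached by 5.06% of thresholded peaks and 4.14% of the others. The window was thus rich in A and T, yet held close to the CG number of the GC-rich peaks. The windows of the other members' highest regions had 34.0% GC and 5 CG at cdc-48.2 (replicate 1), 35.5% and 3 at ufd-1, and 30.0% and 5 at npl-4.1. The like genes varied in the same measures: F19H6.5 had 32.5% GC with 3 CG, and rpl-3 had 45.5% with 14.

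The words searched, on both strands of the same 200 bp, were 3 nuclear receptor half-sites (AGGTCA, its variant AAGTCA, and the further variant AGTTCA), the XBP-1 and CREB core (TGACGT), the GATA factor word (GATAAG), the E-box (CACGTG) and the heat shock element core (TTCNNGAA). The cdc-48.1 window held 3 of the 7. TGACGT lay 25 bp from the summit and appears in the printed strand as ACGTCA, its reverse complement. The half-site AGTTCA lay 82 bp from it, appears as TGAACT and overlaps a match to TTCNNGAA at 79 bp, and together they form the second stretch in capitals. These words are common: TGACGT stood in 6.36% of all pooled windows, AGTTCA in 12.6% and TTCNNGAA in 13.8%. In thresholded windows the shares were 6.75%, 6.51% and 8.68% in the same order. AGGTCA, found in 4.86% of pooled windows, was in no member's window. A match is only a description of the letters.

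The second gene for the same ATPase, cdc-48.2 (WBGene00008053), spans chrII:8138496-8141230 on the plus strand, also with 1 transcript and 5 coding exons. It had no region in the pooled list and none in replicate 2. Replicate 1 listed 1 region, at positions 8137438 to 8137707, with a score of 5.73 and rank 2356 of 23256. Its summit was intergenic, 923 bp upstream of cdc-48.2 but only 655 bp from the start of the divergent gene ctns-1, which encodes a relative of the lysosomal cystine transporter. No pooled region overlapped it. The nearest pooled summit lay 3428 bp upstream, at rank 19281 with a score of 7.20, and the nearest of replicate 2 lay 2115 bp upstream, at rank 17807. The region of replicate 1 thus had no counterpart in replicate 2 within the rule's distance.

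The 100 bp around that replicate 1 summit, chrII:8137523-8137622 on the strand of cdc-48.2, are printed because they are the only listed site assigned to this copy. Capitals mark AAGTCA, which lay 15 bp from the summit and stood in 8.89% of all pooled windows of 200 bp. AGTTCA lay 63 bp from the summit, outside the printed stretch.
cdc-48.2 replicate 1 summit: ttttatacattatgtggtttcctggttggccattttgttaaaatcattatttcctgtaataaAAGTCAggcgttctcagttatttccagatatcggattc

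Set side by side, the copies differed in every list. In the pooled list cdc-48.1 had rank 6 and cdc-48.2 had no region. In replicate 1 cdc-48.1 had rank 17 with a score of 47.92, against rank 2356 with a score of 5.73 for cdc-48.2. In replicate 2 cdc-48.1 had rank 6, and cdc-48.2 again had no region. The genes were chosen for this contrast, so it has no test. The proteins are close copies, of 809 residues for CDC-48.1 and 810 for CDC-48.2, with 88.1% of aligned positions identical. Their coding sequences were 75.5% identical, and the 250 bp before the gene starts 48.6% identical. In the 100 bp before each start, GC content was 26.0% at cdc-48.1 and 38.0% at cdc-48.2. Every word of 36 bases in both gene bodies, in the 500 bp before both starts and in the cdc-48.1 region was found once in the genome. Over the whole assignment windows the share found once was 90.9% at cdc-48.1 and 100% at cdc-48.2.

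**Figure D3:**
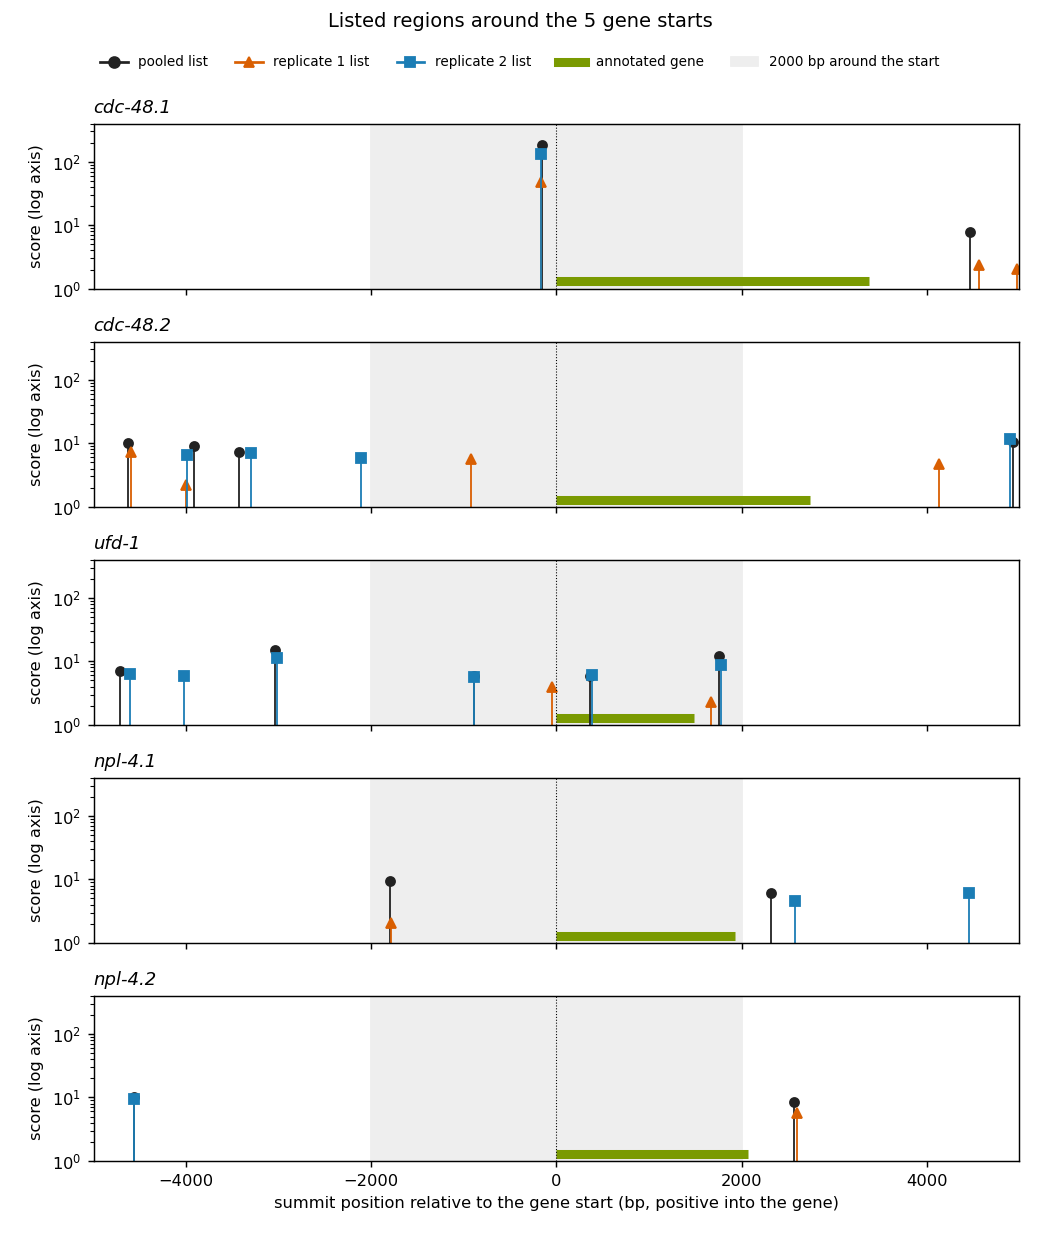
Score (log axis) of every listed region within 5000 bp of the start of each of the 5 genes, by distance of its summit from the start along the gene, for the pooled, replicate 1 and replicate 2 lists. All 3 lists mark 1 tall site just upstream of cdc-48.1, with scores of 183.6, 47.92 and 134.4. In the pooled list the sites at the other genes reach at most 14.88, near ufd-1. Scores share an axis but are not compared between lists.

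Of the adaptor genes, ufd-1 had the most regions but none past the threshold. It encodes the subunit of 342 residues that pairs with NPL-4, and it (WBGene00006733) spans chrIV:12329408-12330890 on the minus strand. The pooled list held 3 regions by the rule. The highest, at positions 12328969 to 12329298, had rank 4176 and a score of 12.05, which is 44.5% of the lowest thresholded score. Its summit lay 1756 bp from the start in the gene's direction, beyond the 3′ end of ufd-1. It was shared with the neighbour F19B6.3, whose best region it is as well. The others had scores of 5.82 and 5.77 and ranks 29189 and 29559, near the bottom of the list. The first of these lay in a coding exon of ufd-1, and the second in a coding exon of F19B6.1, a gene 85 bp away on the same strand.

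The replicates differed at ufd-1. Replicate 2 matched all 3 pooled regions, at ranks 5793, 15504 and 18464. Replicate 1 matched only the one past the 3′ end, at rank 19756, and listed another 50 bp upstream of the start, at rank 7149, which overlapped no pooled region. Of all protein-coding genes, with or without a pooled region, 21.3% had a better best rank than ufd-1. The 100 bp around its highest pooled summit, chrIV:12329084-12329183 on the minus strand, show for comparison the sequence under a region below the threshold. The capitals, CTTATC, mark the reverse complement of GATAAG, 25 bp from the summit, a word in 8.05% of pooled windows.
ufd-1 highest pooled summit: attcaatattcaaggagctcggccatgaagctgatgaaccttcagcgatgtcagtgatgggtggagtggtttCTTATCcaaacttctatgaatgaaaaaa

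NPL-4, the other subunit of the adaptor, is encoded by npl-4.1 and npl-4.2, and neither had a region within 500 bp of its start. For npl-4.1 (WBGene00019120, chrII:5631351-5633284, plus strand) the pooled list held 1 region at positions 5629389 to 5629718, with a score of 9.28 and rank 9907. Its summit was 1797 bp upstream, within the 5′ UTR of the neighbouring gene F59E12.6, and closer to the start of F59E12.15, at 1178 bp. Replicate 1 listed it at rank 22985.5, a tie, with a score of 2.02, and replicate 2 did not list it. Of all protein-coding genes, with or without a pooled region, 40.8% had a better best rank. Rank 9907 was worse than the median best rank of 9010 over the genes with a region. For npl-4.2 (WBGene00019121, chrII:5622889-5624959, plus strand) no list held a region. It was the only member without one, where 91.0% of all protein-coding genes had a region in at least 1 of the 3 lists. The nearest pooled summit lay 2563 bp from its start in the gene's direction, past its 3′ end, with rank 12338.

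The npl-4 genes could not be read in the same way as the cdc-48 genes, since they are nearly the same sequence. Their starts are 8462 bp apart. The proteins, both of 529 residues, were 99.1% identical and the coding sequences 99.5% identical. The 1325 bp before each start were identical base for base. The last 100 bp before each start, chrII:5631251-5631350 and chrII:5622789-5622888, are printed to show it, without capitals, as they hold none of the 7 words.
npl-4.1 before the start: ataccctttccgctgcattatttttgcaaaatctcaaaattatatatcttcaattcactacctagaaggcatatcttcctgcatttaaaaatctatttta
npl-4.2 before the start: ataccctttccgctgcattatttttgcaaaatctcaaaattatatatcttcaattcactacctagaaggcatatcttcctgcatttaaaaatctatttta

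In this duplicated stretch a sequence read can match both copies equally well. In the 500 bp before the start, 0% of the words of 36 bases at npl-4.1 and 0% at npl-4.2 were found once in the genome. In the gene bodies the shares were 14.4% at npl-4.1 and 16.6% at npl-4.2, and over the whole assignment windows 24.9% and 25.6%. With words of 50 bases the windows reached 26.8% at npl-4.1 and 28.0% at npl-4.2. The sources used here give neither the read length nor the treatment of reads with several matches, so the part of this in the missing regions was not tested. The region assigned to npl-4.1 lay outside the duplication, and all of its words were found once. At cdc-48.1 the window value was 90.9%, with all words of the region and the gene body found once.

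**Figure D4:**
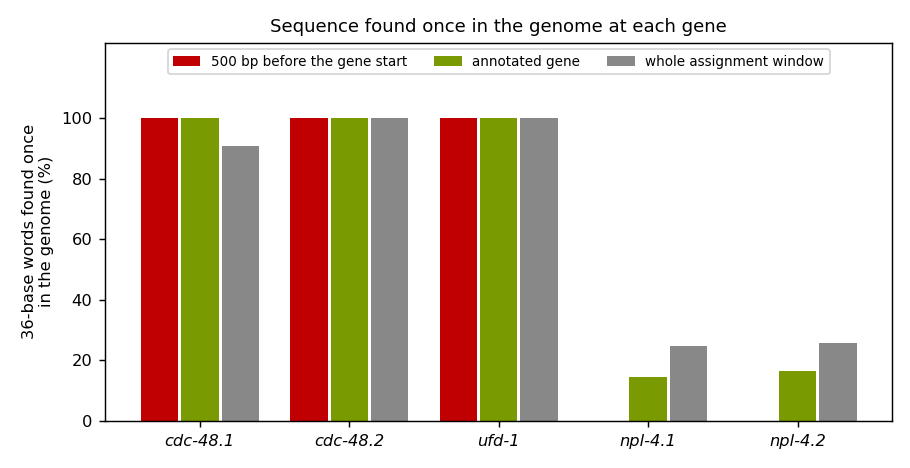
Share (%) of words of 36 bases that occur once in the genome, on either strand, for the 500 bp before the gene start, the annotated gene and the whole assignment window of each member. The cdc-48 genes and ufd-1 lie between 90.9% and 100%, and the npl-4 genes at 0% before the start and below 26% in the window.

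For the wider pathway, counts are read against all protein-coding genes, of which 76.2% had a pooled region and 3.04% a thresholded peak. Of 12 other CDC-48 cofactors and relatives, such as the UBX proteins that tether CDC-48 to substrates, 11 had a pooled region and 0 had a thresholded peak, with a median best rank of 4028, against 9010 over all genes with a region. A count of 0 of 12 is near the share of all genes. The highest were ubxn-3, the counterpart of mammalian FAF1, at rank 1042, and ubxn-2, at rank 1223. The replicates differed at both. The gene ubxn-3 ranked 11618 in replicate 1 and 732 in replicate 2, and ubxn-2 had no region in replicate 1 and rank 506 in replicate 2. The third AAA gene with this name, cdc-48.3, had rank 3426, and ubxn-4 had no pooled region. Among the 415 highest nuclear regions the count was 0 of 12 in each replicate, near the background of 2.93% of all genes in replicate 1 and 2.95% in replicate 2. The rank of 6 at cdc-48.1 was better than that of every gene of this list. Because cdc-48.1 was picked for its high peak, nothing is read from this.

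Of 12 genes of endoplasmic reticulum-associated degradation and the unfolded protein response, 11 had a pooled region and 1 had a thresholded peak, with a median best rank of 4292, beside 76.2% and 3.04% over all genes. The peak was assigned to hsp-3, which encodes a BiP chaperone of the endoplasmic reticulum. It had pooled rank 95, with rank 124 in replicate 1 and 103 in replicate 2. The hsp-3 region also met the rule for C15H9.5. The stress sensor gene atf-6 followed at rank 807, with rank 292 in replicate 1 and 1894 in replicate 2. The gene xbp-1, whose product drives this response, stood at rank 1879. Of 9 genes for ubiquitin supply and substrate handling, all had a pooled region and 1 had a thresholded peak, with a median best rank of 2549, beside the same 76.2% and 3.04%. The gene with the peak was ubql-1, a ubiquilin gene, at pooled rank 151, with rank 581 in replicate 1 and 69 in replicate 2. That region also met the rule for pdi-3. The gene ubq-2, which encodes ubiquitin fused to a ribosomal protein, followed at rank 700. It ranked 5922.5 in replicate 1 and 684 in replicate 2.

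Together these 3 lists held 33 genes. Of these, 31, or 93.9%, had a pooled region and 2, or 6.06%, a thresholded peak. The shares over all protein-coding genes were 76.2% and 3.04%. The median best rank of the 33 genes was 3558, against 9010 over all genes with a region. A best rank is taken over all regions of a gene. Most of the 33 genes had more than 1 pooled region, where the background median was 1 per gene. How far this number shifts the median best ranks, here and in each list, was not tested. In the proteasome, which degrades what CDC-48 delivers, all 32 subunit genes had a pooled region. Of these, 2, or 6.25%, had a thresholded peak: pbs-2 at rank 64 and rpn-3 at rank 69. The median over the list was 3867. The replicates differed at pbs-2, which ranked 788 in replicate 1 and 46 in replicate 2, while rpn-3 ranked 55 in replicate 1 and 161 in replicate 2. The rpn-3 region also met the rule for hsp-110, and the pbs-2 region for tba-2 and eif-6. The pbs-2 summit lay 1309 bp from the pbs-2 start. Of 23 heat shock protein genes, 8, or 34.8%, had a thresholded peak, against 3.04% of all protein-coding genes. They were hsp-110, hsp-90, dnj-13, hsp-60, hsp-3, hsp-1, hsp-12.3 and hsp-12.2, with ranks between 69 and 361. This list holds genes named hsp- and dnj-13. Other dnj genes were left out, so the share is that of a chosen list. Of the heat shock genes with a peak, hsp-12.2 ranked 11120.5 in replicate 1 and 289 in replicate 2. Several of the regions also met the rule for other genes. That of hsp-90 did so for C47E8.4, that of hsp-60 for Y22D7AL.10 and that of hsp-1 for clec-196. The hsp-12.3 region was shared with F38E11.9, and the dnj-13 region with F54D5.9 and dhgd-1. A pooled region was listed for 17 of the 23 heat shock genes, or 73.9%, against 76.2% of all genes. The median over these 17 was 1248. The 6 without one were hsp-75 and genes of the hsp-16 group. The names hsp-16.1 and hsp-16.48 each cover more than 1 gene, and the part of read placement in these missing regions was not tested. The genes hsp-3, hsp-4 and rpn-10 are each in more than 1 list. No gene of these lists reached the rank of cdc-48.1, and nothing is read from this either, as cdc-48.1 was picked for its high peak.

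**Figure D5:**
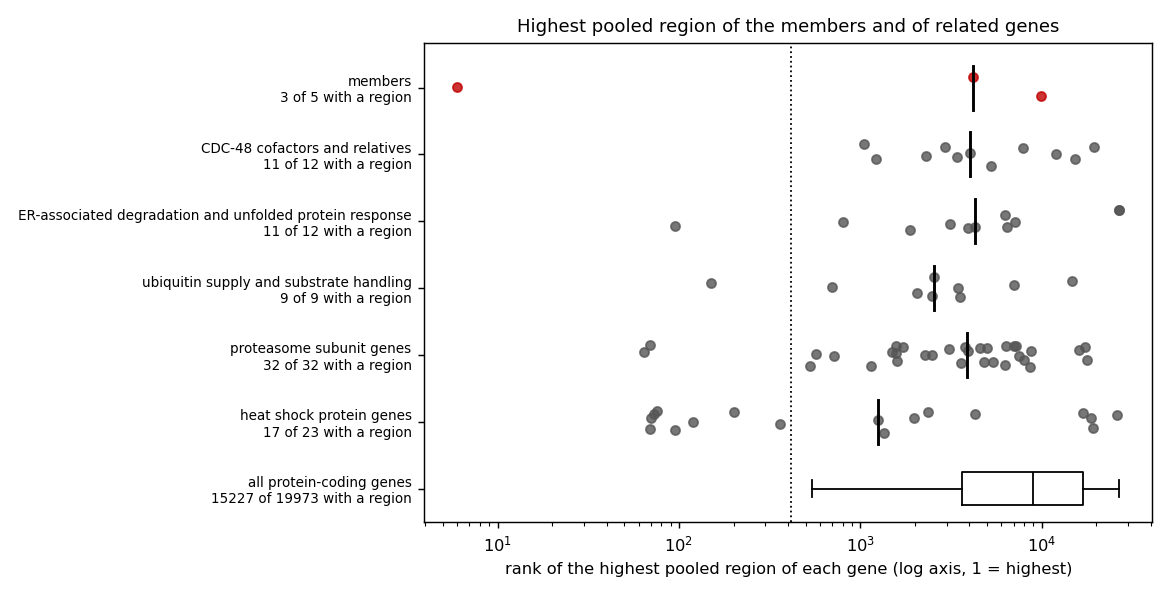
Rank of the highest pooled region (log axis, 1 is the highest) of each gene with a region, for the members, the pathway lists and all protein-coding genes; vertical bars are medians, the box shows the quartiles with whiskers at the 5th and 95th percentiles, and the dotted line marks the 415 thresholded regions. The point at rank 6 is cdc-48.1, and the best gene of any list, pbs-2, stands at rank 64.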

How the data were processed

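The authors deposited narrowPeak region lists for both replicates, their pool and a thresholded set. The score in the seventh column is the authors' peak caller's value; its scale is not stated. Which aligner and which caller were run, and in which version, is not given in the sources used here. Lists on ce11 were used and those on ce10 were not. Depth is unknown, so no interval is given. Summits were assigned to Ensembl release 115 protein-coding genes as the report states, and ties took the mean rank. Scores were ranked within each list, without a statistical test, since there is 1 group.

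Sequence came from the RefSeq WBcel235 genome. Words were searched in 200 bp windows. Copies were compared by global alignment (Biopython 1.88). Words of 36 and 50 bases were counted on both strands of the nuclear and mitochondrial genome. The assignment was tested on simulated regions. Tools were Python 3.11.15, pandas 2.3.3, numpy 2.4.6 and matplotlib 3.10.9.

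Members and gene lists were chosen with earlier results of these data known. Named genes were the 5 members, genes within 2000 bp of the highest cdc-48 regions, list genes with a thresholded peak, the 2 best of each list, and the 5 genes most like cdc-48.1 in replicate ranks. Other genes (cdc-48.3, xbp-1, ubxn-4 and neighbours of ufd-1, npl-4.1, pbs-2 and ubql-1) were named after their values were seen. So were heat shock genes without a region and genes sharing the region of a heat shock gene. Alternatives were other distances, overlap or midpoint, 5′ ends only, every transcript start, nearest start only, a stricter threshold, each replicate alone, ranks without mitochondrial regions, summits within 100 bp, and windows of 100 and 400 bp.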

Additional observations from a re-analysis of the deposited data

How the results depend on the processing

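The count of members with a thresholded peak, 1, was the same under all 11 alternatives tried. Because the peak at cdc-48.1 picked the genes and stood far above the threshold, nothing is read from this stability. Within 5000 bp of the 5′ end, cdc-48.1 had 2 pooled regions, the second by the construction of the wider window. From 1 replicate alone, the rank of the highest region at cdc-48.1 was between 6 and 17, and its rank in replicate 1 was 3 once mitochondrial regions were left out. Within 5000 bp, cdc-48.2 had 4 pooled regions in place of 0, and the best rank at ufd-1 was 2018. Within 500 bp, ufd-1 had 1 pooled region in place of 3, at rank 29189 in place of 4176. The word count at cdc-48.1 was 3 of 7 in 200 and 400 bp windows and 1 in 100 bp. Rank alternatives gave no value for cdc-48.2 and npl-4.2, which had no pooled region. No paired analysis was possible because there was only 1 group. Depth is unknown, and a region too low to be listed cannot be seen here.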
